A study of Mus musculus with 12 samples.

Results

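Infarction was compared with sham surgery in newborn mice that had received saline. The comparison used 6 of the 12 libraries of the series, 3 of saline MI and 3 of saline sham, chosen by the saline, MI and sham marks in the sample titles. Pups, wild type by label and with no strain given, had saline injections on postnatal days 0 to 1. On day 2 they had either the left anterior descending coronary artery closed, which causes a myocardial infarction (MI), or the sham operation, and tissue was taken on day 3. The other 6 libraries came from pups that had received N-acetylcysteine (NAC), an antioxidant thiol, at a dose called high in a buffer of 25 mM HEPES and 140 mM NaCl, in place of saline before the same operations. Ventricles were pooled and digested with enzymes, and cardiomyocytes were enriched with an isolation kit, so each library stands for a pool and holds whatever other cells passed the kit. The comparison shows which transcripts differed a day after infarction in hearts that had no drug. A difference was tested for the 14996 of 52336 genes whose mean normalized read count was at least 10 over all 12 libraries. A gene close to 0 in sham could pass this filter through its values in the other groups.

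Closing a coronary artery kills the muscle it feeds. Surviving cardiomyocytes then turn on a stress programme with genes of the fetal heart, natriuretic peptides and cytoskeletal proteins among them, and dying tissue calls in neutrophils first and monocytes and macrophages after them. The mouse heart of the first days of life can still replace lost muscle by division of cardiomyocytes, a capacity it loses within the first week or so of life.

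The recovered depth was 15323911 to 19774078 reads in the sham libraries and 18116190 to 25118341 in the MI libraries. Cardiomyocyte transcripts were high in both groups, beside RNA of red cells, whose globins took 3.71% to 6.54% of reads in sham and 4.24% to 7.05% in MI. Per kilobase of exon, Actc1, the cardiac actin, had a mean normalized count of 89594 in sham and 94383 in MI, against 4185 and 7895 for Col3a1 of fibroblasts, 4495 and 2863 for Cdh5 of endothelium, and 124 and 3069 for Lyz2 of myeloid cells. The isolates held RNA of several cell types, and in such bulk samples fewer cells of a type and less RNA per cell cannot be told apart. Transcripts of the mitochondrial genome took 7.65%, 13.6% and 27.7% of reads in sham 1, 2 and 3 and 30.2%, 24.7% and 26.6% in MI 1, 2 and 3. Titles of sham 1 and 2 began with R207, of sham 3 with R219, of MI 1 and 2 with R230 and of MI 3 with R235, prefixes whose meaning the labels do not give. No prefix held both operations, so prefix and surgery cannot be told apart. The mix of sexes also moved with the groups. Xist, the RNA of the inactive X chromosome in females, was 5446, 6761 and 3344 in sham and 19.1, 1608 and 0 in MI, while Y-linked Ddx3y was 489, 722 and 177 in sham and 379, 175 and 1075 in MI. The part of this shift, and of the mitochondrial share, in the results was not tested. Replicates are not stated to be separate litters or days, so p-values measure the spread between libraries of pooled hearts.

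Calls a day after MI were almost all upward. Values were normalized read counts, that is reads divided by 1 size factor per library, and differences were taken on log2(value + 1), which understates those of low genes. In limma with Benjamini-Hochberg adjustment, on a spread shared by 3 libraries in each of 4 groups, 129 genes were called at an adjusted p under 0.05 (0.86% of those tested), 128 of them higher (0.854%) and 1 lower (0.00667%). The groups did not overlap, here called separated, in 1564 genes with MI above sham (10.4%) and in 1222 with MI below sham (8.15%). All 129 called genes were among these. DESeq2 called 402 higher and 62 lower, and limma with library quality weights 1513 higher and 1402 lower, so the share of upward calls varied with the setting. The median log2 difference over all genes tested was -0.01. That of the 128 genes that rose was 3.30, with a range from 0.93 (Ecm1) to 8.93 (Spp1), and 23 of the 129 lay above 5. In 40 of the called genes the sham mean was under 10 normalized reads and in 3 (Apoe, Acta1 and Fhl1) it was over 1000. Of the 129, 53 were in at least 1 of 65 lists of pathway genes and cell markers. Lists of neutrophil, monocyte or macrophage markers held 21 of the 129. The 65 lists, chosen with earlier results of these data known, held 1143 of the 14996 genes tested. Of the 14996, the neutrophil lists held 6, 17 and 23 genes, the macrophage lists 10, 18 and 15 and the monocyte list 14. Some genes were in more than 1 of these lists, and their share without repeats was not counted. Neither count was tested against its background. MI 2 was the lowest MI library in 89 of the 128 genes that rose, MI 3 in 27 and MI 1 in 12.

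**Figure D1:**
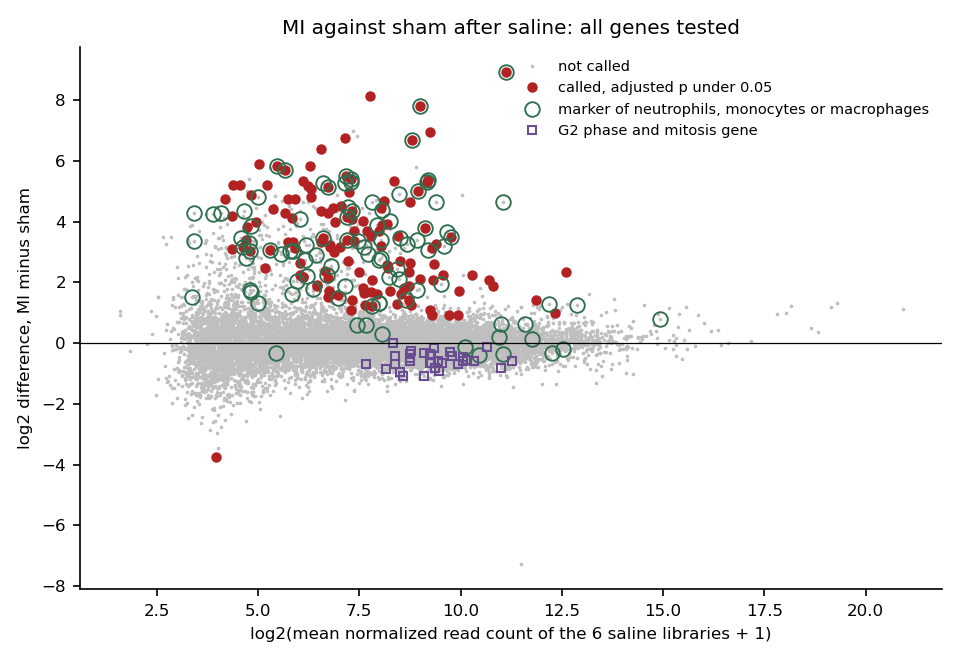
Each point is 1 of the 14996 genes tested, by the log2 of its mean normalized read count + 1 in the 6 saline libraries (x axis) and its log2 difference between MI and sham (y axis), with called genes in red, markers of neutrophils, monocytes or macrophages as green rings and the 32 genes of G2 phase and mitosis as purple squares. All but 1 of the 129 called points lie between 0.93 and 8.93, the squares all lie below 0, and the lowest point of all is Xist, at -7.29, which was not called.

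After MI limma called 4 genes of the cardiac stress programme higher, those of a hormone, an actin, a calponin and a LIM protein. Of 18 tested genes of the fetal and mechanical stress programme, all 18 had a log2 difference above 0, 12 had separated groups and 4 were called (Cnn1, Acta1, Fhl1 and Nppb). The 18 differences ran from 0.000328, close to 0, to 2.79, with a median of 1.03, against -0.01 over all genes tested. EdgeR called 1 of the 18 (Cnn1, with adjusted p 0.0529 for Nppb, 0.0538 for Acta1 and 0.0639 for Fhl1), DESeq2 called 8, and limma without sham 3 called 1. Nppb (ENSMUSG00000029019, chromosome 4, 147985788 to 147987205, mm10) encodes B-type natriuretic peptide, the ventricular hormone released on wall stress. Its normalized counts were 615, 641 and 536 in sham and 4020.1, 1428 and 2779 in MI (log2 difference 2.08, SE 0.43, adjusted p = 0.0433, n = 3 per group, limma). MI 2 was the lowest MI library, still more than the highest sham library. Acta1, the skeletal actin that the fetal and the overloaded heart expresses, was 2756, 1511 and 1867 in sham and 6056, 5555 and 4495 in MI (log2 difference 1.43, SE 0.28, adjusted p = 0.0323). Fhl1, a LIM protein of the sarcomere that takes part in sensing stretch, was 2896, 4388 and 3161 in sham and 6994, 6931 and 6466 in MI (log2 difference 0.99, SE 0.20, adjusted p = 0.0417). Its MI values lay close together and its groups did not overlap. Cnn1, an actin-binding calponin best known from smooth muscle and also found in the embryonic heart, was 189.9, 94.3 and 303 in sham and 1451, 1051 and 819 in MI (log2 difference 2.61, SE 0.39, adjusted p = 0.00747). Cnn1 was also in the mural cell list, where it was the only call. The median of the 11 tested mural genes was -0.46, and 9 were below 0. The smooth muscle myosin Myh11 of that list was 700.2, 253 and 1557 in sham and 504, 277 and 386 in MI (log2 -0.78, adjusted p = 0.591).

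Other members of the stress programme did not pass. Nppa, atrial natriuretic peptide, was 37.7, 49.6 and 92.8 in sham and 537, 391 and 287 in MI (log2 2.79, adjusted p = 0.0722). Ankrd1, a stretch-responsive ankyrin repeat protein of the I band and nucleus, was 12293, 4919.7 and 6549 in sham and 25648, 17016 and 18973 in MI (log2 1.46, adjusted p = 0.0664). Myh7, the slow myosin heavy chain of the fetal ventricle, was 5264, 3619 and 2503 in sham and 9386, 8444 and 8820.5 in MI (log2 1.29, SE 0.54, adjusted p = 0.379). In all 3 of these genes every MI library was above every sham library. Of the exon bases of Nppa 61.5% are shared with another annotated gene, so the source of its reads is uncertain. Myh6, the fast heavy chain, was 159332, 84669 and 62701 in sham and 81768, 114628 and 90445 in MI, with overlapping groups and a log2 difference of 0.0011 whose sign changed with the scaling and with the library left out. Of 30 tested sarcomere and Z disc genes 0 were called by limma, with 0 at an unadjusted p under 0.05, and 0 also by edgeR, by DESeq2 and by limma on the 6 saline libraries alone. Their median was 0.24. The 20 cardiomyocyte markers had a median of 0.19, which became -0.07 without sham 2, so no direction is given for them.

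**Figure D2:**
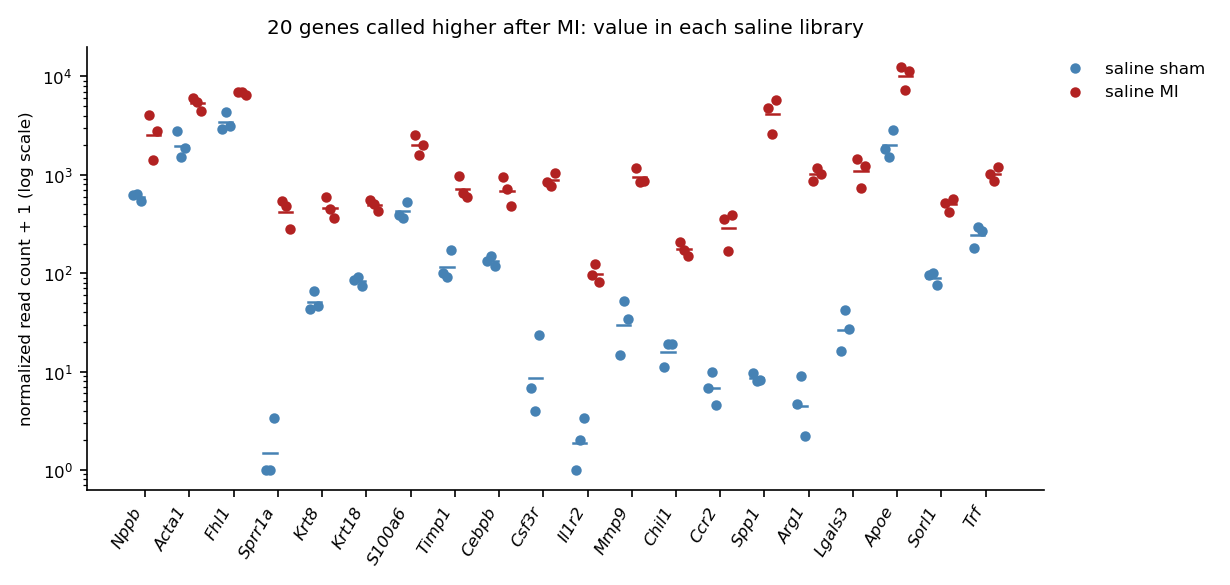
Normalized read count + 1 on a log axis for 20 called genes in the 3 saline sham libraries (blue) and the 3 saline MI libraries (red), with each point a library and each bar the mean on the log scale. In every gene shown, all red points lie above all blue points, and Spp1 has the widest gap.

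Of the 4 called stress genes, Nppb and Acta1 carry an MCAT element near their start sites, the sequence that TEAD factors bind in muscle promoters. The promoters of Cnn1 and Fhl1 were searched too and held none. The 250 bases before the start sites of Nppb and Acta1 are shown from RefSeq (GRCm38.p6), 5′ to 3′ on the gene's strand, with the element GGAATG, or its reverse complement, in capitals. That of Nppb lies at chr4:147985650-147985899, plus strand and that of Acta1 at chr8:123894776-123895025, minus strand.
Nppb: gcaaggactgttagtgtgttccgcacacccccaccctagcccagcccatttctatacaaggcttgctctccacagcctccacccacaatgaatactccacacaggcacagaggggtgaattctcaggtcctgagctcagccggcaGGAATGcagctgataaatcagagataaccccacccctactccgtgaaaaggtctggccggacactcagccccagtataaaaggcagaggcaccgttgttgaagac
Acta1: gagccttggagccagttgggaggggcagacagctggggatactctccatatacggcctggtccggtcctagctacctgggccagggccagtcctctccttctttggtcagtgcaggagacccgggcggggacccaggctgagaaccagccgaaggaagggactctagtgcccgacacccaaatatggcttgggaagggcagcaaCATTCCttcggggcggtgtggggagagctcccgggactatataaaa
The element starts 105 bases before the start site in Nppb and 46 before it in Acta1. GGAATG was present on either strand in 12.6% of all 27025 promoters of this length, in 10.7% of those of genes tested and in 8.91% of the 101 promoters matched among the 128 genes that rose. A match is a string of letters and does not show that a factor binds there.

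The gene with the smallest p-value was Sprr1a, which encodes a small proline-rich protein first known from the cornified envelope of skin and induced in stressed heart and nerve (ENSMUSG00000050359, chromosome 3, 92483952 to 92485895, mm10). It was 0, 0 and 2.38 in sham and 537, 481 and 283 in MI (log2 difference 8.12, SE 0.54, adjusted p = 2.11e-05). It was close to absent in sham and lowest among MI libraries in MI 3. Sprr1a was in the list of keratins and simple epithelial genes. Keratins form the filaments of epicardium and other epithelia. Of the 16 genes in that list 9 were tested, and Krt5, Krt15, Krt20, Cldn1, Cldn4, Sprr1b and Sprr2a1 had too few reads. Untested Krt20 had 0, 13 and 0 reads in sham and 3, 3 and 0 in MI, and Cldn1 3, 10 and 1 and 8, 16 and 20. Sprr1a passed the filter only through its MI values, so counts over tested genes are no test of the list. All 9 tested genes, Sprr1a included, had separated groups with MI above sham, and the median was 2.58. Limma called 4 of them, Sprr1a and 3 keratins, edgeR called 4 and DESeq2 called 8. Krt18 was 84.1, 91.3 and 72.6 in sham and 555, 509.6 and 431 in MI (log2 difference 2.58, SE 0.34, adjusted p = 0.00414). Its filament partner Krt8 was 42.0, 65.5 and 45.2 in sham and 599, 445 and 365 in MI (log2 difference 3.18, SE 0.57, adjusted p = 0.0226). Krt80, another type II keratin, was 112, 83.4 and 60.7 in sham and 324, 325 and 248 in MI (log2 difference 1.83, SE 0.27, adjusted p = 0.00809). Each of these 3 had all sham values well under the lowest MI value. Krt14, Krt7 and Krt19 had log2 differences of 3.53, 2.07 and 1.71 and did not pass (adjusted p from 0.0706 to 0.198). Krt10 and Krt222, outside that list, had log2 differences of 0.21 and -0.10, so 3 of 8 tested keratins were called. Of 15 tested epicardial markers only Krt8 and Krt18 were called. Upk1b, a uroplakin of the epicardium, was 68.1, 132 and 86.9 in sham and 319.7, 197 and 214 in MI (log2 1.36, adjusted p = 0.361). Aldh1a2, which makes retinoic acid there, was 733, 1082 and 1088 in sham and 1542, 1639 and 1677 in MI (log2 0.77, adjusted p = 0.222). Their groups did not overlap.

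The promoter of Sprr1a holds the AP-1 site TGANTCA, which FOS and JUN dimers bind, at 2 places. The 250 bases before its start site (chr3:92485882-92486131, minus strand, GRCm38.p6, RefSeq) are shown with both sites in capitals because this was the gene with the smallest p-value.
Sprr1a: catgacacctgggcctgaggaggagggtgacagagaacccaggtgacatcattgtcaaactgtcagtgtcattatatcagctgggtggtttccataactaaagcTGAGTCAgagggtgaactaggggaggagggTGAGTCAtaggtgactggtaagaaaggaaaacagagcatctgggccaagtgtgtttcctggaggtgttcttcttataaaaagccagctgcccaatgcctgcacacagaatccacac
The sites start 146 and 116 bases before the start site. The motif reads as its own reverse complement apart from the free base, and it was present in 6.85% of all promoters, 4.26% of those of genes tested and 7.92% of those of genes that rose. Of 12 tested AP-1 factors limma, edgeR and DESeq2 called 0, with 0 at an unadjusted p under 0.05, and their median was 0.25. Fos was 11737, 12816 and 12584 in sham and 12768, 10160.2 and 2277 in MI. Junb was 6933, 5433 and 8374 in sham and 9294, 6762 and 2474 in MI. MI 3 stood far below the other 5 libraries in both genes. The 22 other early response genes had a median of -0.20 that became 0.10 without MI 3.

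Of 15 tested genes known as targets of STAT3 or of the acute phase response, 5 were called higher (Sprr1a, Hp, Serpina3n, Timp1 and Cebpb). A log2 difference above 0 was found in 13 of the 15 (median 0.83). Serpina3n, a secreted serine protease inhibitor, was 16.7, 133 and 64.3 in sham and 626, 478 and 767 in MI (log2 difference 3.51, SE 0.62, adjusted p = 0.0193). Hp, the haemoglobin-binding haptoglobin, was 7.25, 19.8 and 17.9 in sham and 345, 278 and 287 in MI (log2 difference 4.36, SE 0.72, adjusted p = 0.0132). Timp1, an inhibitor of metalloproteinases encoded on the X chromosome, was 98.6, 91.3 and 173 in sham and 964, 648 and 593 in MI (log2 difference 2.62, SE 0.48, adjusted p = 0.0251). The groups of these 3 did not overlap. Cebpb, a basic leucine zipper factor of inflammation, was 133, 149 and 118 in sham and 941, 711 and 477 in MI (log2 difference 2.35, SE 0.48, adjusted p = 0.0399). Its relative Cebpa of the myeloid lineage was 34.8, 69.5 and 76.2 in sham and 302, 224 and 370.3 in MI (log2 difference 2.34, SE 0.47, adjusted p = 0.0357). Cebpd, Cebpg and Cebpz of the same family had log2 differences of 0.11, -0.34 and -0.01. The C/EBP family was picked out after its values were seen. Socs3, the feedback inhibitor of the pathway, was 1285, 1611 and 1395 in sham and 2274, 1860.0 and 601 in MI, with MI 3 as the lowest library of all. Of 13 gp130 cytokines and receptors limma called 0, with 4 higher and 1 lower at an unadjusted p under 0.05, edgeR 0 and DESeq2 2 (Osm and Il6ra). Osm, the cytokine oncostatin M made by myeloid cells, was 10.1, 20.8 and 21.4 in sham and 337, 219.9 and 53.6 in MI (log2 3.18, adjusted p = 0.112). Lif was 26.8, 15.9 and 3.57 in sham and 80.8, 53.5 and 51.7 in MI (log2 2.26, adjusted p = 0.225). Groups did not overlap for Osm and Lif. The receptor Lifr was 816, 1122 and 681 in sham and 579.9, 464 and 708 in MI (log2 -0.57, adjusted p = 0.322).

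The interleukin-1 genes that limma called higher were an agonist and a decoy. Of 19 tested genes of the interleukin-1 family and the inflammasome, 16 had a log2 difference above 0, 10 had separated groups with MI higher and 2 were called (Il1b and Il1r2), with a median of 1.30. Il1b, the main secreted agonist, was 3.62, 7.94 and 15.5 in sham and 1716, 1276 and 587 in MI (log2 difference 6.95, SE 1.13, adjusted p = 0.0125). MI 3 was well below MI 1 and MI 2, yet far above every sham value. Il1r2, the decoy receptor that binds interleukin-1 without signalling, was 0, 0.992 and 2.38 in sham and 94.2, 122 and 80.9 in MI, or 3 reads in sham and 331 in MI, a ratio of 109 with an exact 95% counting interval of 37.0 to 532 (log2 difference 5.71, SE 0.63, adjusted p = 0.00158). This interval, like the others given on reads, covers counting error only, and the fitted log2 of a gene with so few sham reads depends on the pseudocount. Il1rn, the secreted receptor antagonist, was 0, 0.992 and 11.9 in sham and 443, 319 and 255 in MI (log2 6.81, adjusted p = 0.0942). Nlrp3, the inflammasome sensor, was 15.9, 4.96 and 7.14 in sham and 279, 284 and 131 in MI (log2 4.55, adjusted p = 0.237). The groups of Il1rn and Nlrp3 did not overlap.

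Ligands that draw neutrophils and the receptor for them rose. In the CXC family Cxcl14, Cxcl2, Cxcr2 and Cxcl5 were called among 12 tested, of which 8 had a difference above 0. Cxcl2 and Cxcl5 are ligands of the neutrophil receptor CXCR2. Cxcl2 was 16.7, 24.8 and 4.76 in sham and 906, 758 and 250.5 in MI (log2 difference 5.34, SE 0.94, adjusted p = 0.0192). Cxcl5 was 0, 0 and 7.14 in sham and 47.1, 36.4 and 26.3 in MI (log2 difference 4.19, SE 0.83, adjusted p = 0.0356). Cxcr2 was 0, 20.8 and 9.52 in sham and 304, 233 and 296 in MI (log2 difference 5.50, SE 1.0, adjusted p = 0.0245). In all of these the groups did not overlap, and MI 3 held the lowest MI value of both ligands. Cxcl14, a chemokine with a broader range of targets, had 1 read in sham and 145 in MI, a ratio of 143 with an exact 95% counting interval of 25.3 to 5702. In the CC family 16 of 22 listed genes had enough reads to be tested. Of these 15 had separated groups with MI higher, and the median was 3.75, but only the receptors Ccr2 and Ccr1 were called. Ccr2, the receptor by which monocytes leave the marrow for inflamed tissue, was 5.80, 8.93 and 3.57 in sham and 354, 168 and 393 in MI (log2 difference 5.41, SE 0.77, adjusted p = 0.00692). Ccr1 was 6.52, 32.7 and 40.5 in sham and 352, 305 and 407 in MI (log2 difference 4.01, SE 0.85, adjusted p = 0.0472). Its ligand Ccl6 was 5.80, 16.9 and 36.9 in sham and 1062, 792 and 943 in MI (log2 5.80, adjusted p = 0.0606). Neither receptor nor ligand had overlapping groups. Ccl2, the ligand of CCR2, was 31.9, 61.5 and 63.1 in sham and 608, 339 and 301 in MI (log2 2.96, adjusted p = 0.184).

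Cxcl2 and Il1r2, a ligand and a decoy, were picked because they hold an NF-kB and a STAT site, so they do not stand for the other genes above. The promoters of Il1b, Serpina3n, Cebpb, Sprr1a and Timp1 were searched too and held neither site. Those of Krt18, Csf3r, Chil1 and Lgals3 held an NF-kB site. The promoter of Cxcl2 (chr5:90903649-90903898, plus strand) holds the NF-kB site at 2 overlapping places, 97 and 96 bases before the start site, and that of Il1r2 (chr1:40085843-40086092, plus strand) holds the STAT site TTCNNNGAA 111 bases before it. Both come from RefSeq (GRCm38.p6), with the sites in capitals.
Cxcl2: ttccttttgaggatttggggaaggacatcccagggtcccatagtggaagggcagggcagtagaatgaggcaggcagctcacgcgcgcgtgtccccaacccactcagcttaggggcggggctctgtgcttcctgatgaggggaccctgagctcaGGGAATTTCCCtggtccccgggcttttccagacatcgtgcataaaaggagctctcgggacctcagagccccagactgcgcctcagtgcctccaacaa
Il1r2: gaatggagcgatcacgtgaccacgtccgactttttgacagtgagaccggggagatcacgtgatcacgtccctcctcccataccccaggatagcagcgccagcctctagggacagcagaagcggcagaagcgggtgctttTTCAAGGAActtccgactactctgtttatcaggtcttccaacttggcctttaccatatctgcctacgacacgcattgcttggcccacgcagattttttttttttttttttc
The NF-kB site was present in 7.03% of all promoters and 14.9% of those of genes that rose (15 of 101). The same motif stood in 8.81% of the promoters of all genes tested. The STAT site stood in 7.14% of all promoters, 5.86% of those of genes tested and 5.94% of those of genes that rose. TTGCNNAA, a site of C/EBP factors, stood in 9.55%, 7.24% and 8.91%. Each motif was searched on both strands, and these shares are descriptions with no test.

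Genes of mature neutrophils formed the list with the most calls. All 23 tested members had separated groups with MI above sham and an unadjusted p under 0.05, 9 were called (8 by edgeR and 18 by DESeq2), and the median log2 difference was 3.87, against 0.854% of genes called higher and a median of -0.01 over all genes tested. The list held 26 genes, of which Cxcr1, Ly6g and Mrgpra2b had too few reads to be tested. Reads were 0 in all 6 saline libraries for Cxcr1. Ly6g had 0, 5 and 0 in sham and 5, 0 and 2 in MI, and Mrgpra2b 0, 1 and 2 and 11, 17 and 22. Members close to 0 in sham passed the filter through other libraries, so the count over tested members is no test. The mean log2 value over the tested members was 2.4, 4.1 and 4.0 in sham against 7.5, 7.6 and 7.4 in MI. Csf3r, which encodes the G-CSF receptor of the neutrophil lineage (ENSMUSG00000028859, chromosome 4, 126024550 to 126044440, mm10), was 5.80, 2.98 and 22.6 in sham and 841, 767 and 1046 in MI (log2 difference 6.67, SE 0.88, adjusted p = 0.00414). Hcar2, a receptor for hydroxybutyrate and niacin that neutrophils and macrophages carry, had 2 reads in sham and 283 in MI, a ratio of 139.9 with an exact 95% counting interval of 38.4 to 1161. S100a9, a subunit of calprotectin, was 37.7, 237 and 284 in sham and 1564, 1417 and 1709 in MI (log2 difference 3.5, SE 0.72, adjusted p = 0.0417). Sham 1 was low for S100a9 against sham 2 and 3, and the same held for its partner S100a8, which was 25.4, 213 and 271 in sham and 1632, 1293 and 1435 in MI (adjusted p = 0.0581). Slpi, an inhibitor of neutrophil elastase, was 6.52, 1.98 and 8.33 in sham and 42.6, 46.8 and 55.5 in MI (log2 difference 3.05, SE 0.56, adjusted p = 0.0251). Hdc, which makes histamine, was 104, 164 and 144 in sham and 321, 347 and 272 in MI (log2 difference 1.2, SE 0.24, adjusted p = 0.0363), the smallest of the 9 differences.

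Granule genes of neutrophils are made in order as the cell matures, primary granules in the youngest marrow cells and tertiary granules late. Of 6 tested primary granule genes 1 was called, Prtn3 for proteinase 3, which was 8.70, 0.992 and 4.76 in sham and 35.9, 39.4 and 52.6 in MI (log2 difference 3.16, SE 0.63, adjusted p = 0.0357). Mpo, myeloperoxidase, was 1.45, 24.8 and 1.19 in sham and 24.7, 23.0 and 74.1 in MI (log2 2.80, adjusted p = 0.422), and its groups overlapped through sham 2. Of 17 secondary and tertiary granule genes, 16 had separated groups and Chil1, Mmp9, Hp and Camp were called (median 2.52). Chil1, a chitinase-like protein stored in specific granules, was 10.1, 17.9 and 17.9 in sham and 209, 170.1 and 149 in MI (log2 difference 3.47, SE 0.33, adjusted p = 0.000519). Mmp9, the gelatinase of tertiary granules, was 13.8, 50.6 and 33.3 in sham and 1179, 839 and 859 in MI (log2 difference 5.0, SE 0.72, adjusted p = 0.00747). Camp, the cathelicidin precursor, was 5.80, 20.8 and 2.38 in sham and 69.5, 77.3 and 53.6 in MI (log2 difference 3.08, SE 0.64, adjusted p = 0.0417). No groups of these 3 overlapped. Ltf, lactoferrin of the secondary granules, was 43.5, 124 and 46.4 in sham and 162, 151 and 227 in MI (log2 1.47, adjusted p = 0.395). Sham 2 was the highest sham library for Mpo and Ltf.

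Among receptors that sense microbes and debris limma called 5 higher. Of 25 tested pattern recognition genes, 20 had a log2 difference above 0, 19 had separated groups with MI higher and 5 were called (Hcar2, Clec7a, Trem2, Cd14 and Marco), against 3 by edgeR and 12 by DESeq2, with a median of 4.08. Cd14, the co-receptor for lipopolysaccharide, was 20.3, 62.5 and 13.1 in sham and 1420.1, 1279.9 and 648 in MI (log2 difference 5.31, SE 1.02, adjusted p = 0.0315). Clec7a, the receptor for fungal glucan, was 0, 1.98 and 2.38 in sham and 228, 133 and 195 in MI (log2 difference 6.39, SE 1.05, adjusted p = 0.0126). Trem2, a lipid receptor of macrophages, was 10.1, 21.8 and 11.9 in sham and 325, 163 and 345 in MI (log2 difference 4.15, SE 0.76, adjusted p = 0.0253). In these 3 genes no sham value came near an MI value. Marco, a scavenger receptor, had 0 reads in sham and 222 in MI, at least 73.2-fold higher when sham is set to 3 reads in all. Cd5l, a secreted scavenger protein of macrophages, also had 0 reads in sham and 124 in MI, at least 40.9-fold higher.

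Among general macrophage markers limma called 1 higher in the fit on all 12 libraries. Of 18 pan-macrophage markers, 17 had separated groups with MI higher and an unadjusted p under 0.05, and the median was 3.38, but only Cd14 was called by limma, with 0 calls by edgeR and 11 by DESeq2. Their mean log2 value was 5.6, 5.8 and 5.5 in sham against 9.3, 8.7 and 9.4 in MI. Csf1r, the receptor for macrophage colony-stimulating factor, was 184, 169 and 108 in sham and 1331, 1105 and 1753 in MI (log2 3.19, adjusted p = 0.085). Ctss, a lysosomal cathepsin, was 44.9, 68.5 and 38.1 in sham and 1417, 897 and 1553 in MI (log2 4.65, adjusted p = 0.0985). Lyz2, a lysozyme with a near copy (Lyz1) that could share its reads, was 109, 185 and 195 in sham and 4182, 3265 and 4672 in MI (log2 4.65, adjusted p = 0.128). All 3 MI libraries were several-fold above every sham library in these genes. Ccr2 alone was called among 14 monocyte markers and F13a1 alone among 10 markers of resident macrophages. F13a1, the A chain of clotting factor XIII, was 58.7, 141 and 44.0 in sham and 1019.6, 726 and 1358 in MI (log2 difference 3.79, SE 0.71, adjusted p = 0.0274). Of those 10 markers, 9 had a difference above 0, 7 had separated groups with MI higher and 6 had an unadjusted p under 0.05 (median 1.97). Lyve1, a marker of resident macrophages and also of lymphatic vessels, was an exception to the separation. It was 68.9, 218 and 151 in sham and 215, 178 and 210.5 in MI (log2 0.61, adjusted p = 0.597), with groups that overlapped. Lymphocyte markers were sparse. Only 9 of 18 had enough reads to be tested and limma, edgeR and DESeq2 called 0 of them, with 1 at an unadjusted p under 0.05.

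The called gene with the highest log2 difference was in the list of macrophage repair genes. Spp1, osteopontin, a secreted adhesion protein, was 8.70, 6.95 and 7.14 in sham and 4811, 2618 and 5823 in MI (log2 difference 8.93, SE 1.30, adjusted p = 0.00747). Arg1, arginase 1, which diverts arginine to ornithine, was 3.62, 7.94 and 1.19 in sham and 866, 1183 and 1014 in MI (log2 difference 7.82, SE 1.15, adjusted p = 0.00747). Lgals3, a galactose-binding lectin, was 15.2, 41.7 and 26.2 in sham and 1454, 733 and 1233 in MI (log2 difference 5.37, SE 0.87, adjusted p = 0.0125). Sham values of Spp1 and Arg1 stayed under 9 normalized reads in all 3 libraries, and no MI value of the 3 genes was under 733. With Trem2 these were the 4 calls among 15 tested repair genes, of which 12 had a log2 difference above 0. Gpnmb, a lysosomal glycoprotein of lipid-laden macrophages, was 10.1, 18.9 and 19.0 in sham and 577, 236 and 489 in MI (log2 4.63, adjusted p = 0.144). Hmox1, heme oxygenase 1, was 294, 237 and 378 in sham and 1187, 983 and 1338 in MI (log2 1.96, adjusted p = 0.356). The groups of Gpnmb and Hmox1 did not overlap, and neither gene was called.

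**Figure D3:**
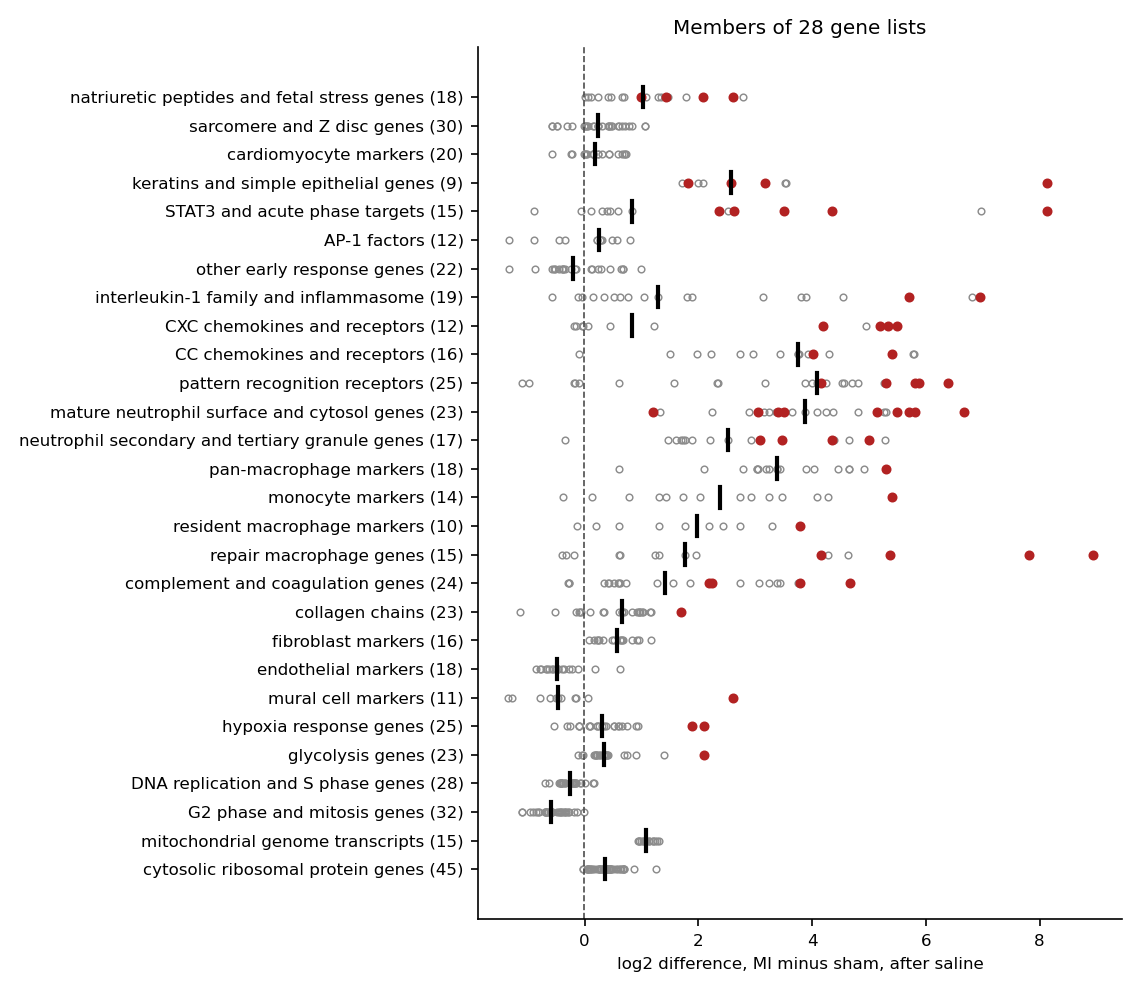
Log2 difference between MI and sham for every tested member of 28 lists, 1 row a list with its number of tested genes, red where the gene was called and open grey where it was not, with the list's median as a black bar and the median of all genes tested, -0.01, as a dashed line. Neutrophil, macrophage, chemokine and pattern recognition rows lie far to the right with medians from 1.76 to 4.08 apart from CXC chemokines, while endothelial, mural and mitosis rows lie to the left with no call to the left of the line.

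Most called genes were in none of the lists, 76 of 129, and several of these belong to gene families of white cells. These families were picked after their values were seen. On chromosome 11, 4 of 6 tested Cd300 genes, most of them paired receptors on myeloid cells, were called. Cd300lf was 4.35, 12.9 and 9.52 in sham and 305, 286 and 282 in MI (log2 4.98, adjusted p = 0.0142). Cd300lb was 3.62, 2.98 and 2.38 in sham and 154, 99.5 and 183 in MI (log2 5.16, adjusted p = 0.00747). The member known from endothelium, Cd300lg, was 1904, 3343 and 2448 in sham and 1399.9, 1904 and 1279.6 in MI (log2 -0.73, adjusted p = 0.67), the only 1 of the 6 with a negative difference. On chromosome 16, all 8 tested stefin genes, cysteine protease inhibitors of neutrophils, had a log2 difference above 0 and Stfa1 and Gm5483 were called. Stfa1 was 11.6, 33.7 and 35.7 in sham and 303, 238 and 257 in MI (adjusted p = 0.0112). Stefin copies are close in sequence, so the split of reads among them is uncertain.

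Several called genes encode signalling and cytoskeletal proteins of white cells, some of them members of the lists. Fgr, a Src family kinase of myeloid cells, was 0, 1.98 and 4.76 in sham and 319.7, 241 and 279.7 in MI (log2 difference 6.76, SE 1.0, adjusted p = 0.00747). Itgax, the integrin chain CD11c of dendritic cells and macrophages, was 0.725, 9.92 and 3.57 in sham and 184, 116 and 154 in MI (log2 difference 5.08, SE 0.66, adjusted p = 0.00414). Itgb2, the beta chain shared by leukocyte integrins, was 17.4, 44.7 and 41.7 in sham and 828, 679 and 971 in MI (log2 difference 4.63, SE 0.97, adjusted p = 0.0465). Ncf1, the organizing subunit p47phox of the phagocyte oxidase, was 21.7, 35.7 and 13.1 in sham and 596, 413 and 479 in MI (log2 difference 4.43, SE 0.86, adjusted p = 0.0329). Sham and MI libraries did not overlap in any of them, and Ncf1 was the only call among 12 NADPH oxidase genes. Coro1a, Ptpn6, Arhgap30, Myo1f, Selplg and Dok2, genes whose products work in leukocyte signalling, motility or adhesion, had log2 differences of 3.26, 3.52, 3.70, 3.92, 3.69 and 3.17 and all passed (adjusted p from 0.0128 to 0.0492). Arhgap45, a GTPase-activating protein of blood cells, was 100.03, 108 and 78.5 in sham and 699, 488 and 685 in MI (log2 difference 2.69, SE 0.34, adjusted p = 0.00414). Runx1, a factor of blood formation, was 31.2, 29.8 and 32.1 in sham and 163, 163 and 173 in MI (log2 difference 2.39, SE 0.38, adjusted p = 0.0118). Within each group its 3 values lay close together. Runx1 was in the list of cardiac transcription factors, where it was the only call among 22 tested genes. Which cells its reads came from was not tested.

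Receptors and enzymes of inflammation outside the lists also rose. Alox5, the lipoxygenase that starts leukotriene synthesis, was 51.5, 52.6 and 57.1 in sham and 131, 148 and 191 in MI (log2 difference 1.51, SE 0.30, adjusted p = 0.0343). Ptafr, the receptor for platelet-activating factor, was 10.9, 16.9 and 4.76 in sham and 259, 163 and 327 in MI (log2 difference 4.50, SE 0.84, adjusted p = 0.027). Cytokine receptor chains were among them, with log2 differences of 2.09 for Il17ra, 3.23 for Il10ra and 1.63 for Csf2ra (adjusted p 0.0324, 0.0464 and 0.0282). In all 5 genes the MI libraries lay above the sham libraries. Card9, an adaptor behind CLEC7A, was 7.97, 5.95 and 13.1 in sham and 85.2, 92.9 and 111 in MI (log2 difference 3.34, SE 0.63, adjusted p = 0.0301). Prkcd, a protein kinase C that heart and white cells both express, was 397, 364 and 401 in sham and 872, 698 and 917 in MI (log2 difference 1.09, SE 0.18, adjusted p = 0.013), one of the smaller differences. Mirt1, a long noncoding RNA named for myocardial infarction, was 0.725, 6.95 and 2.38 in sham and 57.2, 64.6 and 48.7 in MI (log2 difference 4.0, SE 0.68, adjusted p = 0.017). Not all called genes are typical of white cells. Ptprn, a membrane protein of secretory granules in nerve and endocrine cells, was 10.1, 10.9 and 11.9 in sham and 132, 95.8 and 90.6 in MI (log2 difference 3.14, SE 0.44, adjusted p = 0.0063). Enpp1, which makes pyrophosphate and restrains mineral deposits, was 79.7, 110.1 and 90.4 in sham and 372, 210.2 and 313 in MI (log2 difference 1.64, SE 0.29, adjusted p = 0.0209). In both the lowest MI value was above the highest sham value. Metrnl, a secreted protein that heart and macrophages make, was 110.2, 98.2 and 158 in sham and 408, 304 and 392 in MI (log2 difference 1.60, SE 0.27, adjusted p = 0.0145).

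A further group encodes lysosomal proteins and carriers of lipid and iron that many cells express. Lgmn, the lysosomal protease legumain, was 562, 746 and 1016 in sham and 2961, 2225 and 3181 in MI (log2 difference 1.87, SE 0.27, adjusted p = 0.00747). Ctsc, the cathepsin that activates granule proteases, was 106, 147 and 127 in sham and 1247, 853 and 1263 in MI (log2 difference 3.13, SE 0.59, adjusted p = 0.0296). Gm2a, the activator of ganglioside breakdown, was 218.9, 252 and 302 in sham and 685, 542 and 624 in MI (log2 difference 1.26, SE 0.18, adjusted p = 0.0071). All 3 were expressed in sham and had no overlap between groups. Apoe, the lipid-carrying protein of lipoproteins, was 1839, 1504 and 2857 in sham and 12430.5, 7245 and 11356 in MI (log2 difference 2.34, SE 0.40, adjusted p = 0.0174). Per kilobase of exon Apoe had the highest MI level of all called genes, 4838, followed by Nppb at 3512 and Acta1 at 3495. Sorl1, a sorting receptor of the LDL receptor family, was 95.7, 98.2 and 75.0 in sham and 520.5, 418 and 572 in MI (log2 difference 2.48, SE 0.24, adjusted p = 0.000519). Trf, transferrin, was 178, 295 and 268 in sham and 1009.5, 856 and 1210.4 in MI (log2 difference 2.07, SE 0.22, adjusted p = 0.00153). Of its exon bases 63.5% are shared with another annotated gene, and the strand setting of the counting was not given in the sources used here, so the source of its reads is uncertain. Fam20c, the kinase that phosphorylates secreted proteins, osteopontin among them, was 161, 149.8 and 199 in sham and 616, 499.9 and 684 in MI (log2 difference 1.81, SE 0.21, adjusted p = 0.00232).

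In hypoxia and glycolysis lists limma called 8% and 4.35% of tested genes, all higher, against 0.86% of all genes tested. Slc16a3, the lactate exporter MCT4, was 223, 195 and 155 in sham and 947, 758 and 762 in MI (log2 difference 2.11, SE 0.34, adjusted p = 0.0126). Pfkfb4, which sets the level of a glycolytic activator, was 60.9, 34.7 and 21.4 in sham and 145, 126 and 134 in MI (log2 difference 1.88, SE 0.38, adjusted p = 0.0387). These were the calls among 25 hypoxia response genes, of which 19 had a difference above 0 (median 0.31). Slc16a3 was also the only call among 23 glycolysis genes. Eno2, the enolase of neurons and other cells, was outside the lists and was 63.1, 57.6 and 41.7 in sham and 151, 157 and 194 in MI (log2 difference 1.62, SE 0.28, adjusted p = 0.0171). Pgam1 was 1013, 853 and 937 in sham and 1543, 1599 and 1366 in MI (log2 0.69, adjusted p = 0.0576), with separated groups. Of 25 NRF2 targets and of 24 antioxidant enzymes and metallothioneins limma called 0, with 8 and 3 higher and 0 lower at an unadjusted p under 0.05, edgeR 0 and DESeq2 2 (Pgd and Gsr, both NRF2 targets). The medians of those lists were 0.29 and 0.22. S100a6, a calcium-binding protein of growing and injured cells, was 394, 363 and 533 in sham and 2552, 1600.0 and 1990.0 in MI (log2 difference 2.24, SE 0.29, adjusted p = 0.00414).

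Limma called 1 of 23 collagen chains (4.35%) and 3 of 22 metalloproteinases and inhibitors (13.6%). Of 29 matricellular and provisional matrix genes it called 1 (3.45%), Spp1, which was also in the list of macrophage repair genes. The share over all genes tested was 0.86%. Col5a3, a minor fibrillar collagen chain, was 499, 624 and 307 in sham and 1575, 1212 and 1734 in MI (log2 difference 1.70, SE 0.34, adjusted p = 0.037), the only call by limma among 23 collagen chains, of which 17 had a difference above 0 and 13 had separated groups with MI higher. EdgeR called 0 (Col5a3 at an adjusted p of 0.0547) and DESeq2 7 (Col1a1, Col1a2, Col3a1, Col5a1, Col5a3, Col6a2 and Col8a1), and 12 had an unadjusted p under 0.05 in limma. Col1a1, the main chain of scar collagen, was 23646, 26395 and 17225 in sham and 49022, 40224 and 61941 in MI (log2 1.17, adjusted p = 0.225), with groups that did not overlap. All 16 fibroblast markers had a difference above 0 (median 0.57) and limma called 0, with 6 at an unadjusted p under 0.05, edgeR 0 and DESeq2 4 (Col1a1, Col1a2, Col3a1 and Gsn). Among proteases Mmp19 was 29.7, 50.6 and 34.5 in sham and 181, 152 and 176 in MI (log2 difference 2.15, SE 0.35, adjusted p = 0.0126), and with Mmp9 and Timp1 it made the 3 calls of 22. MI 3 was the lowest MI library for Cxcl2, Il1b, Cebpb and Cd14 alike. F13a1, C4b, encoding a complement component, and C5ar1, encoding the receptor for the complement fragment C5a, were among the 4 calls in 24 complement and coagulation genes (median 1.41).

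In the other response lists few genes or none passed. Of 19 NF-kB feedback and adhesion genes limma called 0, with 9 higher at an unadjusted p under 0.05, edgeR 1 and DESeq2 4 (Selp, Ptgs2, Tnfrsf1b and Cd44). Ptgs2, the inducible cyclooxygenase, was 7.97, 18.9 and 10.7 in sham and 432, 168 and 106 in MI (log2 3.96, adjusted p = 0.0506). Selp, the selectin of platelets and endothelium that slows white cells, was 9.42, 27.8 and 4.76 in sham and 56.1, 74.3 and 41.9 in MI (log2 2.25, adjusted p = 0.102). Their groups did not overlap. Of 28 interferon-stimulated genes limma called 0, with 2 higher and 2 lower at an unadjusted p under 0.05, edgeR 0 and DESeq2 1 (Ifitm1), and the median was 0.36. Of 20 heat shock proteins and 18 endoplasmic reticulum chaperones limma, edgeR and DESeq2 called 0, with 3 higher and 1 lower at an unadjusted p under 0.05 in each list. Cryab, the small heat shock protein of striated muscle, was 6143, 3673 and 8961 in sham and 11945, 11964 and 8365 in MI (log2 0.85, adjusted p = 0.421). Of 30 genes of fatty acid oxidation limma called 0, with 1 higher and 1 lower at an unadjusted p under 0.05, edgeR 0 and DESeq2 1 (Plin2). Plin2, which coats lipid droplets, was 644, 841 and 1382 in sham and 2233, 1798 and 2046 in MI (log2 1.15, adjusted p = 0.124). Of 27 genes of cholesterol and fatty acid synthesis 18 were at or below 0 (median -0.29), and limma called 0, with 7 lower at an unadjusted p under 0.05, edgeR 0 and DESeq2 1.

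The only gene that limma called lower in the fit on all 12 libraries was Gm47087, an unclassified transcript (annotation class TEC). Gm47087, named here after its values were seen, was 23.2, 47.6 and 13.1 in sham and 1.12, 2.23 and 0 in MI (log2 difference -3.75, SE 0.68, adjusted p = 0.0242). Genes of dividing cells were below 0 without a call. All 32 tested genes of G2 phase and mitosis had a log2 difference below 0 (median -0.58, range -1.10 to -0.01), while 49.1% of all genes tested were above 0. Of these 16 had separated groups and 20 an unadjusted p under 0.05, and limma called 0, edgeR 0 and DESeq2 3 (Ccnb2, Bub1 and Anln). The mean log2 value was 9.60, 9.75 and 9.27 in sham and 8.86, 8.94 and 9.11 in MI. Sham 3 was the lowest sham library and MI 3 the highest MI library. Ccnb2, a mitotic cyclin, was 620.5, 876 and 1023 in sham and 462, 546 and 398 in MI (log2 -0.82, adjusted p = 0.129). Ccnb1 was 719.8, 1199 and 829 in sham and 556, 619.5 and 528 in MI (log2 -0.66, adjusted p = 0.227), and Cdk1, its kinase, was 1099, 1504 and 1505 in sham and 1036, 909 and 803 in MI (log2 -0.57, adjusted p = 0.202). Mki67, the antigen of cycling cells, was 3703, 3022 and 1139 in sham and 974, 1053 and 2316 in MI (log2 -0.81, adjusted p = 0.479), with groups that overlapped through sham 3 and MI 3. Of 28 genes of DNA replication 25 were below 0 (median -0.25), and limma called 0, with 6 lower at an unadjusted p under 0.05, edgeR 0 and DESeq2 1 (Rrm2). Without sham 3, limma called 23 genes lower, 3 of them in the list of G2 phase and mitosis, against 1 lower with all libraries.

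The number of calls differed with the NAC libraries in or out of the fit. The test shares 1 spread per gene over all 12 libraries. In a fit on the 6 saline libraries alone limma called 507 genes, 463 higher (3.09%) and 44 lower (0.293%), and all 129 genes were among them. For the 335 genes called higher only there, the median SD within groups on the log2 scale was 0.48 in the saline libraries and 1.57 in the NAC libraries, against 0.34 and 0.35 over all genes tested. These genes were chosen for passing in the saline libraries and missing with the NAC libraries added. A wider spread in NAC follows from that choice, so these values are no test. Of 18 pan-macrophage markers 17 were called in the fit on 6 libraries, against 1 in the fit on 12. Their median SD was 0.44 in saline and 2.07 in NAC, where NAC sham 2 had a score of 9.9 and NAC MI 2 of 5.6. Ctss had an adjusted p of 5.71e-05 in the 6 libraries, Csf1r of 0.000105 and Lyz2 of 3.16e-05. Calls rose likewise from 9 to 21 of 23 genes of mature neutrophils, from 5 to 18 of 25 pattern recognition genes and from 2 to 11 of 16 CC chemokines and receptors. In the fetal stress list they went from 4 to 9 of 18, with Nppa, Ankrd1, Ccn2, Xirp2 and Myh7 added. No gene of G2 phase and mitosis and no endothelial marker was called there, with 0 of 32 and 0 of 18 by limma, while 20 and 4 had an unadjusted p under 0.05 in the fit on 12.

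**Figure D4:**
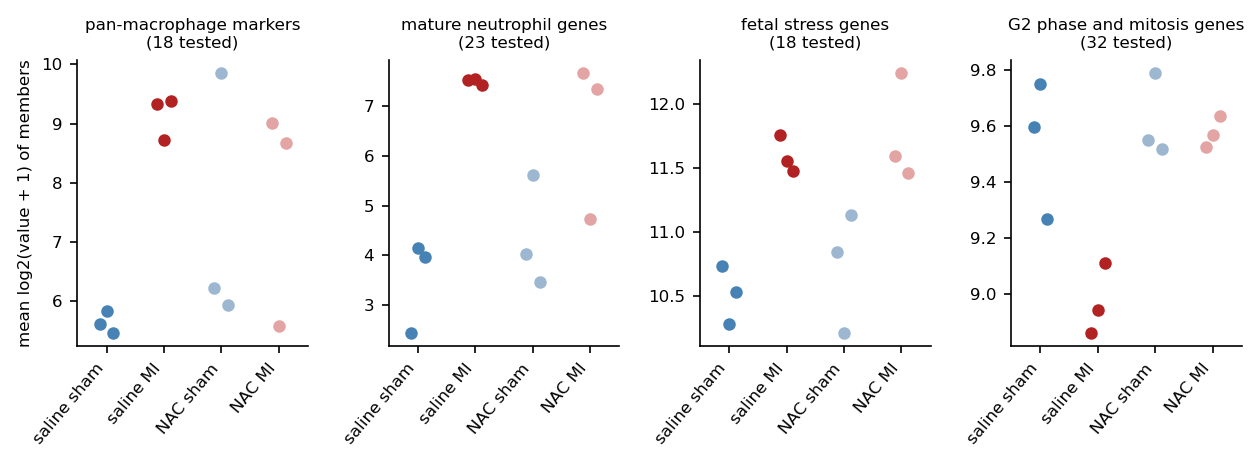
Mean log2(value + 1) over the tested members of 4 lists in each of the 12 libraries, 1 point a library, with saline groups in full colour and NAC groups in pale colour. In macrophage markers the saline groups are apart while 1 NAC sham library lies above all MI libraries and 1 NAC MI library among the sham libraries, and in mitosis genes the 3 saline MI points, 8.86 to 9.11, are the lowest of the 12.

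Of the 44 genes called lower in the 6 saline libraries, 6 that are known from blood vessels are described, chosen after their values were seen. Dll4, the Notch ligand of arterial and tip endothelial cells, was 1803, 1480.5 and 1461 in sham and 777, 738 and 708 in MI (log2 difference -1.09, SE 0.18, adjusted p = 0.00667 in that fit). Apln, the apelin hormone of sprouting endothelium, was 2759.5, 2412 and 1685 in sham and 1044, 1253 and 755 in MI (log2 difference -1.17, SE 0.25, adjusted p = 0.0323). Meox2, a homeobox factor of capillary endothelium, was 940.1, 1138 and 1077 in sham and 414, 516 and 523 in MI (log2 difference -1.12, SE 0.19, adjusted p = 0.00794). In all 3 every MI library lay below every sham library. Cavin2, a caveola protein, was 7162, 7320.1 and 6871 in sham and 3447, 3516 and 4289.9 in MI (log2 difference -0.93, SE 0.20, adjusted p = 0.0285). Sox7, a factor of vessel identity, was 1935, 1941 and 2075 in sham and 1187, 1163 and 1220.1 in MI (log2 difference -0.74, SE 0.17, adjusted p = 0.0456). Sham and MI did not overlap in these either. Rgs5, a marker of pericytes, was 5260.3, 6278 and 6005 in sham and 2108, 1809 and 3106 in MI (log2 difference -1.35, SE 0.24, adjusted p = 0.00856), the only 1 of the 44 in any of the lists. In the fit on 12 libraries their adjusted p was 0.294 for Dll4, 0.519 for Apln, 0.422 for Meox2, 0.0942 for Cavin2, 0.219 for Sox7 and 0.0657 for Rgs5. Of 18 general endothelial markers, 16 were below 0 in the comparison and 11 had separated groups with MI lower (median -0.49), and limma, edgeR and DESeq2 called 0, with 1 higher and 3 lower at an unadjusted p under 0.05. Cdh5, the cadherin of endothelial junctions, was 19115, 19469.6 and 18091 in sham and 11535, 14119 and 10445 in MI (adjusted p = 0.498). Plvap, of the fenestrae of endothelium, was on the other side, with 1163, 1459 and 1795 in sham and 2384, 2003 and 2306 in MI (log2 0.62, adjusted p = 0.348).

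Mitochondrial and ribosomal transcripts were above 0 in most members, with sham 1 and 2 apart from sham 3. All 15 tested transcripts of the mitochondrial genome had a difference above 0 (median 1.07) and 43 of 45 cytosolic ribosomal protein genes (median 0.35), with 0 calls by limma, edgeR or DESeq2 in either and 2 and 7 genes at an unadjusted p under 0.05. The score of ribosomal genes was 12.2, 12.2 and 13.3 in sham against 13.1, 12.9 and 12.6 in MI, so that sham 3 was the highest library of the 6. Without sham 3 the medians were 1.70 and 0.73. In nuclear-encoded subunits of the respiratory chain the median of 0.22 became -0.05 without sham 2. Their part in the other results was not tested.

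The count of calls changed with single libraries. Leaving out 1 of the 6 saline libraries left between 15 (without MI 1) and 105 (without sham 3) calls, with 29 without MI 3, 39 without sham 1, 43 without MI 2 and 83 without sham 2. A group of 2 libraries was then compared with 3. Of the 129 genes, 15 passed in all 6 of these fits and 36 in none. The 15 were Sprr1a, Chil1, Sorl1, Trf, Il1r2, Emb, Fam20c, Cyp4f18, Arhgap45, Rasgrp4, Itgax, S100a6, Krt18, Csf3r and Sema4a. Emb, embigin, a partner protein of lactate transporters, was 18.8, 31.8 and 25.0 in sham and 233, 181 and 281 in MI (log2 difference 3.16, SE 0.36, adjusted p = 0.00193). Sema4a, a membrane semaphorin, was 30.4, 30.8 and 23.8 in sham and 315, 297 and 287 in MI (log2 difference 3.37, SE 0.45, adjusted p = 0.00414). Cyp4f18, which breaks down leukotriene B4 in neutrophils, was 1.45, 3.97 and 11.9 in sham and 156, 149 and 142 in MI (log2 difference 4.80, SE 0.61, adjusted p = 0.00414). In these 3 genes no groups overlapped. Nppb, Acta1, Fhl1, Cd14 and Krt8 passed in 1 of the 6 fits each and Apoe in 2.

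**Figure D5:**
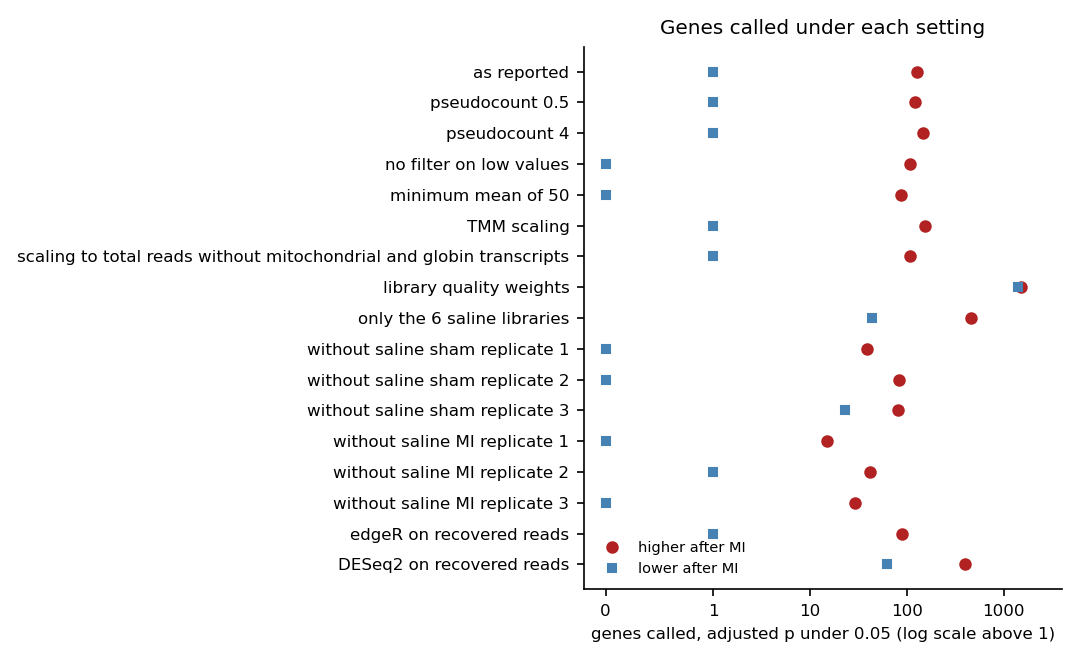
Number of genes called higher (red circles) and lower (blue squares) after MI under the reported fit and 16 alternatives, on an axis that is logarithmic above 1. Circles lie between 15 (without saline MI replicate 1) and 1513 (library quality weights), and squares lie at 0 or 1 except with library quality weights (1402), in the 6 saline libraries (44), without saline sham replicate 3 (23) and in DESeq2 (62).

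Whether the response differed after NAC was tested as an interaction. Limma called 0 of 14996 genes (0%), with 305 at an unadjusted p under 0.05, DESeq2 called 1 and edgeR 0, and the smallest adjusted p was 0.9999 in limma. Of the 128 genes that rose after saline, 127 also had a log2 difference above 0 after NAC, and 114 had a smaller one there. Their median was 3.30 after saline and 1.52 after NAC. The genes were chosen for their difference after saline, so the smaller median is no test. Sprr1a had a log2 difference of 8.12 after saline and 8.97 after NAC, Krt8 of 3.18 and 4.77, and Acta1 of 1.43 and 2.11. Apoe had 2.34 and 0.40, Ctsc 3.13 and 0.61, and Pnpla7, a lysophospholipase, 1.57 and -0.01. A miss of the threshold does not show that the responses were alike.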

How the data were processed

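RNA was extracted with Trizol and poly-A selected, per the labels' protocols. STAR 2.7.10a, DESeq2 1.44.0 and mm10 are named in the submitters' processing notes, while the counter, its annotation and whether strand was used are not given in the sources used here. The deposited table holds 1 signal value per gene and library, a gene's read count divided by 1 size factor per library. Whole reads were recovered for 100% of values within 0.01, and the size factors matched median-of-ratios factors in 12 of 12 libraries. The authors' values were used as log2(value + 1) in limma 3.58.1 (R 4.3.3) with a mean-variance trend over 4 groups of 3 libraries, Benjamini-Hochberg adjustment over 14996 genes with a mean of at least 10 and calls at an adjusted p under 0.05. The lowest mean kept was 10.0 and the highest left out also rounded to it. The script was checked on simulated data. Recovered reads were tested with edgeR 4.0.16 (quasi-likelihood) and DESeq2 1.42.0 as alternatives. Other alternatives changed the pseudocount, the filter, the scaling, library weights and the libraries used, each one at a time. Depth was 15323911 reads or more per saline library and 14353842 or more per NAC library. A score is the mean log2 value over a list's tested members.

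Named were all called genes other than predicted or clone names, up to 4 members per list with the smallest p among those under an unadjusted 0.05, and Nppa, Nppb, Myh6, Myh7, Mki67, Ccnb1 and Cdk1. The members and the 65 lists (1143 of 1228 symbols tested) were chosen with earlier results of these data known. Named after their values were seen, outside that rule, were Actc1, Apln, Cavin2, Ccl2, Cd300lg, Cdh5, Cebpd, Cebpg, Cebpz, Ctss, Ddx3y, Dll4, Fos, Gm2a, Gm47087, Gm5483, Gpnmb, Hmox1, Junb, Krt10, Krt14, Krt222, Krt7, Ltf, Lyve1, Lyz2, Meox2, Myh11, Nlrp3, Socs3, Sox7, Upk1b and Xist, and the genes given only as calls of DESeq2. The motifs were searched in RefSeq promoters (GRCm38.p6) after the called genes were known. Some called genes are not reported here.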

Additional observations from a re-analysis of the deposited data

How the results depend on the processing

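The count of 129 calls for MI against sham became 2915 with library quality weights, 507 with the 6 saline libraries alone and 464 in DESeq2, and 15 to 105 with 1 saline library left out (the lowest without MI 1). Under the other 7 settings it was 87 to 154. The interaction count of 0 became 1 in DESeq2 and 0 to 4 with 1 library left out, the 4 without NAC MI 3. The log2 fold change of Myh6, 0.0011, changed sign without mitochondrial and globin transcripts in the scaling (-0.0054), with quality weights (-0.52), in edgeR (-0.086), in DESeq2 (-0.098) and over libraries left out (-0.30 to 0.38). Among the 263 genes named by the rule above, no other changed direction under the alternatives. The remaining genes tested were not part of this check. Over all genes tested, 49.1% were above 0 as reported and 46.4% in DESeq2. The cause of these changes was not tested. With 1 library left out a group holds 2, and the fit pools the spread over the rest. No paired analysis was possible because the labels give the saline groups no shared replicate numbers. Genes with a handful of sham reads are limited by depth.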
